A study of Bos taurus with 9 samples.

Results

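The growth hormone and insulin-like growth factor (IGF) axis of the liver was followed through 10 of the 28786 genes in the count table of the study. The genes were taken by symbol for their known roles, with earlier results of these data known: *GHR*, *JAK2*, *STAT5B*, *SOCS2*, *IGF1*, *IGFALS*, *IGFBP1*, *IGFBP2*, *IGFBP3* and *IGFBP4*. Each of the 10 had between 128 and 35817 counts in every library and passed the filter on low counts in every comparison.

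The libraries were made from poly(A) RNA of liver biopsies from 9 lactating Holstein cows, with 3 cows in each group and 1 biopsy and 1 library per cow. The TN group stayed at thermoneutrality. The PF (pair-fed) group was also held at thermoneutrality, but its feed was restricted to what the heat-stressed cows ate. The HS (heat stress) group was kept in a daily heat cycle, hotter by day than by night. All 9 cows were first acclimated at thermoneutrality, were biopsied late in the second week of treatment and were a random sample of the cows of a larger trial. HS vs. PF thus compares heat at like intake, PF vs. TN compares intake at like temperature, and HS vs. TN compares both together. The groups differed in their mean days in milk, which were fewest in the TN and most in the PF group.

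In the liver, growth hormone from the pituitary binds the receptor GHR, which activates the kinase JAK2 and through it the transcription factor STAT5B. STAT5B drives the transcription of *IGF1*, of *IGFALS* and of *SOCS2*, whose product feeds back to restrain the receptor. Hepatic IGF1 circulates mainly in a complex with IGFBP3 and the acid-labile subunit encoded by *IGFALS*, while the other binding proteins carry IGF1 in smaller complexes. In dairy cows the axis is known for its uncoupling in early lactation, when an energy deficit goes with less hepatic GHR and IGF1 despite abundant growth hormone.

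The libraries held 16874444 to 22557047 counts on genes. TN replicate 1 stood apart from the other 8 libraries on the first principal component (35.8% of the variance), at -51.6 against -9.71 to 21.1. The summed level of 10 hepatocyte markers was 18590 CPM (read counts scaled by library size after TMM normalization) in TN replicate 1, 69990 and 81870 in the other TN cows, 90330 to 124200 in the PF group and 61690 to 137900 in the HS group. *ALB*, which encodes albumin, was abundant in all 9 libraries (8770 to 82510 CPM). Macrophage markers summed to 1281 to 2858 CPM in the TN, 1270 to 1747 in the PF and 1891 to 2979 in the HS libraries, while the muscle genes *ACTA1* and *MYH7* had no count in any library. The share of counts on mitochondrial protein-coding genes was 13.6% to 22.2% in the TN, 6.90% to 7.79% in the PF and 3.85% to 5.68% in the HS libraries. Bulk tissue cannot tell fewer cells of a type from less RNA per cell, and the part of these library differences in the results below was not tested except where values without TN replicate 1 are given.

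None of the 10 genes was a differentially expressed gene (DEG) in any comparison. DEGs were called by edgeR (quasi-likelihood F test) on the 6 libraries of a pair, at a false discovery rate (FDR) below 0.1 with more than a 1.5-fold difference. In HS vs. TN 0 of 10 were DEGs, beside 13 of 14582 genes tested (0.0892%), and 1 had an unadjusted p under 0.05, beside 9.36% of all genes. In HS vs. PF 0 of 10 were DEGs beside 4 of 14510 genes (0.0276%), and 1 had an unadjusted p under 0.05 beside 5.32%. In PF vs. TN 0 of 10 were DEGs, as was 0% of the 14580 genes tested, and 1 had an unadjusted p under 0.05 beside 6.88%. With DESeq2, 0 of the 10 were DEGs as well, while 270, 122 and 91 genes were DEGs in HS vs. TN, HS vs. PF and PF vs. TN. The numbers of members with an unadjusted p under 0.05 by DESeq2 were 3, 1 and 2, beside 7.91%, 4.63% and 6.41% of all genes. A joint test of the 3 groups on all 9 libraries found 0 of 10 beside 7 of 15073 genes (0.0464%), with *IGFALS* at the smallest p of the members (0.0401, FDR 0.617) and the one member with an unadjusted p under 0.05, beside 7.86% of all genes.

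**Figure D1:**
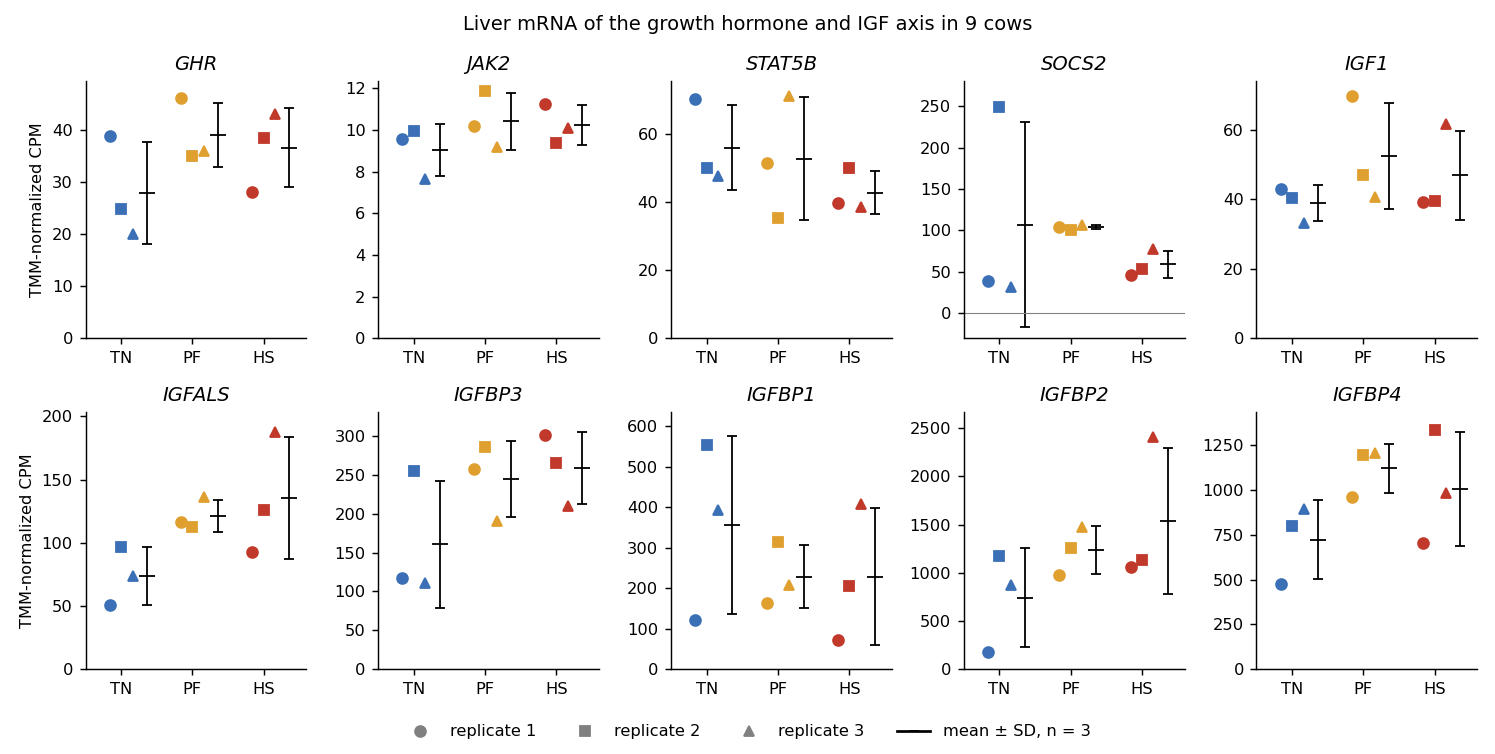
TMM-normalized CPM (linear axis) of the 10 genes in each cow, by group, with the replicate number as the marker shape and the mean ± SD of 3 cows beside each group. The PF cows lie at 101.1 to 106.6 CPM for *SOCS2*, above all 3 HS cows, while the TN cows span 32.3 to 249.4 CPM.

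The receptor mRNA was lowest on average in the TN group. *GHR* was at 38.8, 24.8 and 19.9 CPM in TN replicates 1, 2 and 3, at 46.0, 35.0 and 35.9 CPM in the PF cows, and at 28.1, 38.5 and 42.9 CPM in the HS cows. The highest TN cow lay within the range of both other groups, so no pair of groups was separate. The mean was 27.8 ± 9.77 CPM for the TN, 39.0 ± 6.14 for the PF and 36.5 ± 7.59 for the HS group (SD, n = 3). In PF vs. TN the log2 fold change was 0.48 (SE 0.29, 95% interval -0.15 to 1.11, edgeR FDR 0.713), 0.37 in HS vs. TN (SE 0.29, -0.29 to 1.02, FDR 0.681) and -0.10 in HS vs. PF (SE 0.24, -0.62 to 0.42, FDR 1). The high TN cow was TN replicate 1, the library with few hepatocyte transcripts. Without it the log2 fold changes against TN were 0.80 for PF (SE 0.26, unadjusted p 0.011, edgeR FDR 1) and 0.70 for HS cows (SE 0.25, p 0.0202, FDR 0.676). Without TN replicate 3, the lowest TN cow, they were 0.29 for PF and 0.17 for HS cows.

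The kinase gene had the narrowest range over the 9 cows, relative to its level, of the 10 genes. *JAK2* ranged from 7.63 to 9.94 CPM in TN, from 9.17 to 11.9 in PF and from 9.36 to 11.3 in HS cows, with 128 to 305 counts per library. All 3 groups overlapped. Its log2 fold changes of 0.16 (SE 0.24) in HS vs. TN, 0.20 (SE 0.27) in PF vs. TN and -0.025 (SE 0.25) in HS vs. PF had 95% intervals that lay within -0.57 and 0.80.

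The transcription factor gene *STAT5B* was at 70.3, 49.97 and 47.6 CPM in the TN, 51.5, 35.3 and 71.2 in the PF and 39.8, 49.9 and 38.6 CPM in the HS cows, in replicate order. The HS cows had the lowest mean and the smallest spread, but TN replicate 3 lay within their range and the PF cows lay on either side of it. In HS vs. TN the log2 fold change was -0.41 (SE 0.24, 95% interval -0.95 to 0.13, edgeR FDR 0.586), -0.30 in HS vs. PF (SE 0.27, -0.91 to 0.30, FDR 1) and -0.091 in PF vs. TN (SE 0.31, -0.76 to 0.58, FDR 0.941). The HS vs. TN value was -0.19 without TN replicate 1, and the HS vs. PF value was -0.023 without PF replicate 3. *STAT5B* lies next to its near-identical paralog *STAT5A*, and reads that match both may be split or lost in counting, so the levels of both genes are uncertain in this respect.

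The feedback inhibitor *SOCS2* gave the clearest separation between the heat-stressed and the pair-fed cows. It was at 103.9, 101.1 and 106.6 CPM in the PF cows and at 46.2, 53.4 and 77.6 CPM in the HS cows, while the TN cows had 38.4, 249.4 and 32.3 CPM. Every HS cow was below every PF cow, whereas the TN group held both the highest and the lowest cow of the study. Groups that did not overlap, with HS lower, were found for 4.58% of all genes in HS vs. PF, and in either direction for 10.5%. The mean was 59.1 ± 16.4 CPM in the HS cows and 103.9 ± 2.74 CPM in the PF cows (SD, n = 3). The fold change fitted by edgeR was 0.566, or -0.82 on the log2 scale (SE 0.25, 95% interval -1.37 to -0.27). Its unadjusted p of 0.00744 was the smallest of the 10 genes in any comparison, but ranked 172nd in that comparison, and the FDR of edgeR was 0.627. The difference kept its sign in each fit that left out 1 of the 6 cows (-1.06 to -0.68), and its FDR ranged from 0.212 to 1 over all alternatives. In the same comparison 9 of 9 macrophage markers lay above 0, with a median log2 fold change of 0.74, 7 of them with an unadjusted p under 0.05 by edgeR and 0 DEGs. Their part in the *SOCS2* difference was not tested.

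Against TN the *SOCS2* difference depended on a single cow. With all cows, the log2 fold change was -0.86 in HS vs. TN (SE 0.68, 95% interval -2.38 to 0.66, edgeR FDR 0.679) and -0.039 in PF vs. TN (SE 0.63, -1.42 to 1.34, FDR 0.988). TN replicate 2, at 249.4 CPM, was more than 6 times as high as the other TN cows. Without it the values turned to 0.73 in HS vs. TN (SE 0.30, unadjusted p 0.036, edgeR FDR 0.357) and to 1.56 in PF vs. TN (SE 0.32, p 0.000445, FDR 0.198). Hepatocyte markers summed to 81870 CPM in TN replicate 2, within the range of the HS group, and its total of 16923423 counts was near that of TN replicate 1. Its lymphocyte markers summed to 57.2 CPM, the highest of the 9 cows, its macrophage markers to 2858 CPM against 1281 and 1661 in the other TN cows, and its stellate cell and fibroblast markers to 502.5 CPM against 323.0 and 281.8. HS replicate 3 was higher for macrophage markers (2979 CPM) and HS replicate 1 for stellate cell and fibroblast markers (504.2 CPM). In TN replicate 2 endothelial markers summed to 941.3 CPM against 1029 and 736.5 in the other TN cows. Its cholangiocyte markers summed to 28.2 CPM against 86.4 and 47.9. The part of these markers in its *SOCS2* value was not tested. The annotation places a noncoding RNA gene over *SOCS2*, but that gene was not listed among the genes of the count table. The strand setting of the counting was not given in the sources used here.

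**Figure D2:**
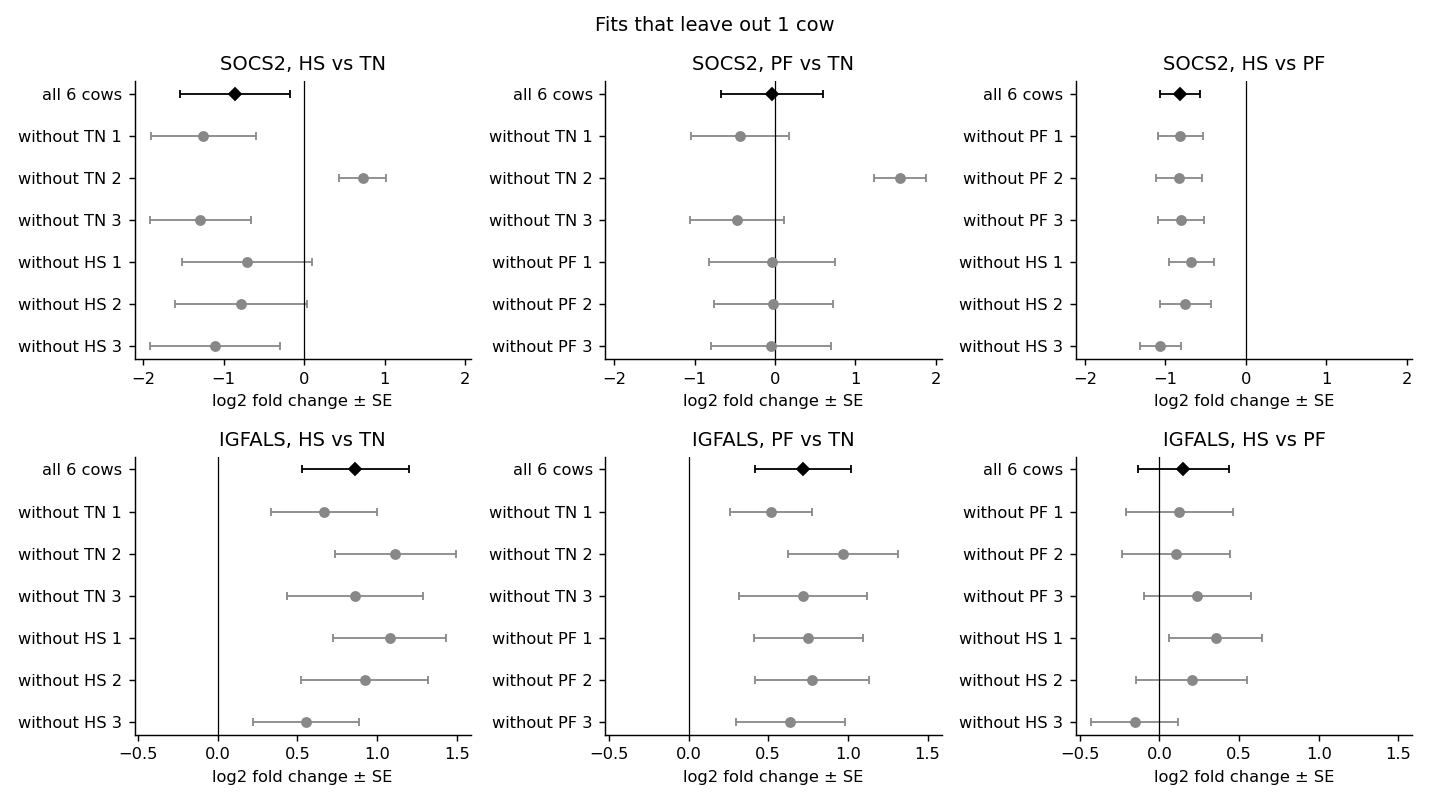
Log2 fold change (x axis) ± SE of *SOCS2* (upper panels) and *IGFALS* (lower panels) in each comparison, with all 6 cows (black diamonds) and with each cow left out (grey circles). For *SOCS2* the values against TN cross 0 when TN replicate 2 is left out, while the values in HS vs. PF stay between -1.06 and -0.68.

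The endocrine product itself, *IGF1*, was at 43.1, 40.3 and 33.1 CPM in TN, at 69.9, 47.1 and 40.7 CPM in PF and at 39.4, 39.7 and 61.7 CPM in HS cows. A single PF and a single HS cow stood above the remaining 7 cows, which lay within 33.1 to 47.1 CPM. The group means of 38.8 ± 5.18 (TN), 52.6 ± 15.3 (PF) and 46.9 ± 12.8 CPM (HS) followed the same order as those of *GHR*, and none of the neighbours in that order differed beyond their spread. Fold changes on the log2 scale were 0.43 in PF vs. TN (SE 0.27, 95% interval -0.17 to 1.03, edgeR FDR 0.722), 0.25 in HS vs. TN (SE 0.25, -0.30 to 0.81, FDR 0.734) and -0.17 in HS vs. PF (SE 0.28, -0.78 to 0.44, FDR 1). The HS vs. TN value was 0.0088 without HS replicate 3. A noncoding RNA gene that overlaps *IGF1* in the annotation had up to 605 counts in a library, and reads in the overlap cannot be assigned without strand.

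*IGFALS* had the largest difference relative to its error of the 10 genes in both comparisons with TN. Its level was 50.9, 96.9 and 73.4 CPM in the TN cows, 116.3, 112.2 and 135.9 CPM in the PF cows and 92.7, 125.8 and 187.6 CPM in the HS cows. All PF cows were above all TN cows, which held for 6.81% of all genes with PF higher and for 13.2% in either direction, and only HS replicate 1 fell within the TN range. The log2 fold change was 0.86 in HS vs. TN (SE 0.34, 95% interval 0.11 to 1.62, unadjusted p 0.029, edgeR FDR 0.487) and 0.72 in PF vs. TN (SE 0.30, 0.055 to 1.38, p 0.0362, FDR 0.708). The HS and PF means of 135.3 ± 48.2 and 121.4 ± 12.7 CPM differed by a log2 fold change of 0.15 (SE 0.29, -0.48 to 0.78, FDR 1). Both comparisons with TN use the same 3 TN cows, the lowest of which was TN replicate 1. Without that cow the log2 fold changes were 0.67 for HS (SE 0.33, p 0.0766, edgeR FDR 0.79) and 0.52 for PF (SE 0.26, p 0.0746, FDR 1).

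*IGFBP3*, the main carrier of IGF1 in plasma, was at 117.1, 255.0 and 110.3 CPM in TN, 257.8, 286.1 and 191.0 CPM in PF and 301.0, 265.3 and 209.9 CPM in HS cows. TN replicates 1 and 3 were below all other cows, and TN replicate 2 lay among the PF and HS cows. The log2 fold change was 0.67 in HS vs. TN (SE 0.37, 95% interval -0.16 to 1.51, edgeR FDR 0.577), 0.61 in PF vs. TN (SE 0.38, -0.23 to 1.44, FDR 0.722) and 0.076 in HS vs. PF (SE 0.27, -0.53 to 0.68, FDR 1). Without TN replicate 2 the values were 1.17 in HS vs. TN (SE 0.35, unadjusted p 0.00791, edgeR FDR 0.262) and 1.11 in PF vs. TN (SE 0.38, p 0.0129, FDR 0.452). Without TN replicate 3 they were 0.46 in HS vs. TN and 0.40 in PF vs. TN. *IGFBP1* is its neighbour in the genome.

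*IGFBP1*, a binding protein that insulin represses, varied widely inside each group. Its level was 121.1, 555.2 and 393.4 CPM in TN, 164.3, 313.9 and 209.1 CPM in PF and 72.5, 204.5 and 408.4 CPM in HS cows. The PF cows lay inside the range of both other groups. Its coefficient of variation was 61.5% for the TN, 33.5% for the PF and 74.1% for the HS group. The log2 fold changes of -0.65 in HS vs. TN (SE 0.65, 95% interval -2.11 to 0.81), -0.64 in PF vs. TN (SE 0.49, -1.72 to 0.44) and -0.010 in HS vs. PF (SE 0.50, -1.12 to 1.097) all had edgeR FDR values of at least 0.74. Single cows moved these values by more than 1.5 times. Without TN replicate 1 they were -1.04 in PF vs. TN (SE 0.32, unadjusted p 0.00915, edgeR FDR 1) and -1.06 in HS vs. TN, and without TN replicate 2 they were -0.17 and -0.18. In HS vs. TN the value was -0.22 without HS replicate 1 and -1.38 without HS replicate 3.

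*IGFBP2*, which typically rises in plasma under feed restriction, had 178.0, 1178 and 869.2 CPM in TN, 975.7, 1253 and 1479 CPM in PF and 1064, 1132 and 2410 CPM in HS cows. TN replicate 1 was far below the other 8 cows and HS replicate 3 far above them. Those were also the cows with the lowest and the highest sum of hepatocyte markers, 18590 and 137900 CPM, and the part of this in the *IGFBP2* values was not tested beyond the fits that leave a cow out. The log2 fold change was 1.04 in HS vs. TN (SE 0.65, 95% interval -0.41 to 2.49, edgeR FDR 0.604), 0.74 in PF vs. TN (SE 0.56, -0.49 to 1.96, FDR 0.75) and 0.31 in HS vs. PF (SE 0.37, -0.51 to 1.13, FDR 1). Leaving out TN replicate 1 brought the values against TN to 0.58 for HS and 0.28 for PF, and leaving out HS replicate 3 brought HS vs. TN to 0.56 and HS vs. PF to -0.17.

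*IGFBP4*, generally an inhibitor of IGF action in tissues, was at 473.6, 801.2 and 894.0 CPM in TN, 962.8, 1193 and 1209 CPM in PF and 703.4, 1336 and 981.8 CPM in HS cows. Every PF cow was above every TN cow, which held for 6.81% of all genes with PF higher and for 13.2% in either direction. The HS group overlapped both. PF vs. TN had a log2 fold change of 0.63 (SE 0.36, 95% interval -0.17 to 1.43, edgeR FDR 0.709), beside 0.47 in HS vs. TN (SE 0.41, -0.45 to 1.38, FDR 0.704) and -0.16 in HS vs. PF (SE 0.32, -0.86 to 0.54, FDR 1).

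**Figure D3:**
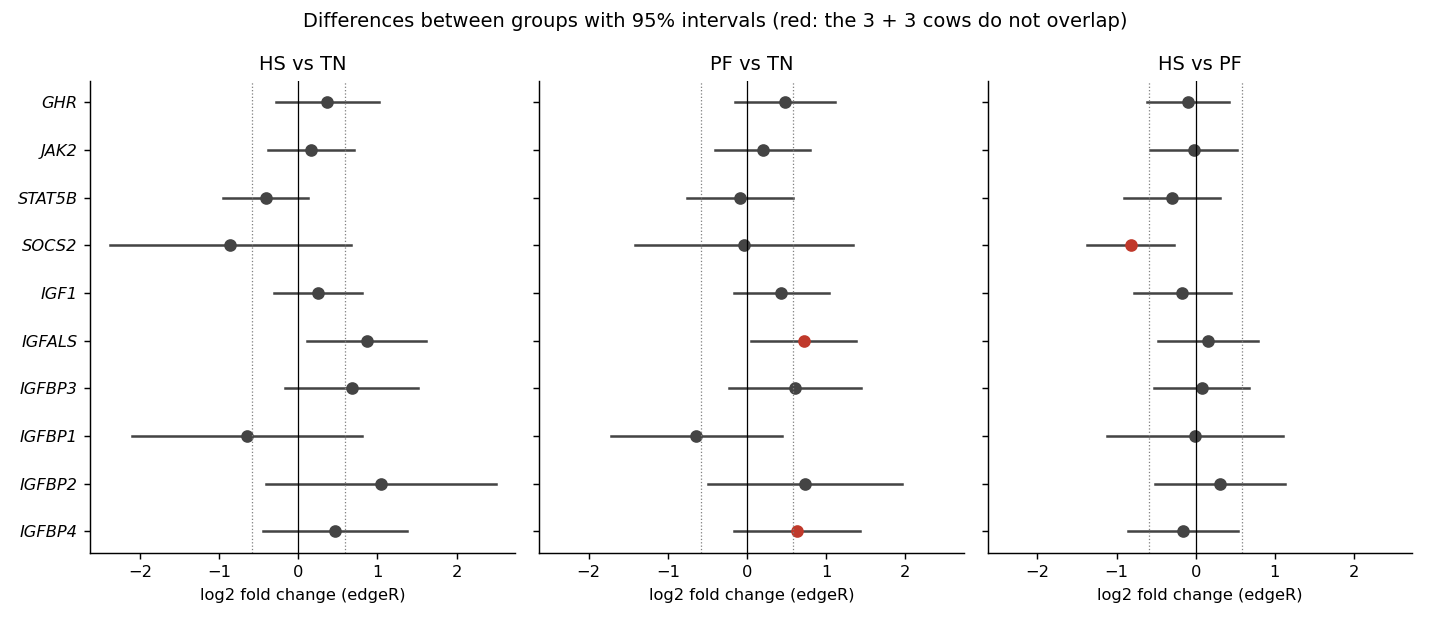
Log2 fold change (x axis, edgeR) of the 10 genes in the 3 comparisons, with 95% intervals, dotted lines at a fold change of 1.5 in either direction and red points where the cows of the groups do not overlap. The intervals leave out 0 for *IGFALS* against TN in both comparisons and for *SOCS2* in HS vs. PF, and none of these passed the FDR threshold.

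As a set, the axis genes had more values above than below TN in both comparisons with it, and 0 of them passed the test. In HS vs. TN 7 of 10 log2 fold changes were above 0 and their median was 0.31, beside a median of -0.0082 over all genes tested, of which 49.3% were above 0. In PF vs. TN the same count was 7 of 10 with a median of 0.46, beside -0.014 and 48.8%. In HS vs. PF only 3 of 10 were above 0, with a median of -0.063 beside 0.0069 and 50.9%. The comparisons with TN share their TN cows and are not independent of each other. Past a fold change of 1.5 in either direction, whatever the FDR, were 5 genes in HS vs. TN, 5 in PF vs. TN and 1, *SOCS2*, in HS vs. PF, beside 22.9%, 22.8% and 16.1% of all genes. Without TN replicate 1 the medians were 0.30 in HS vs. TN and 0.34 in PF vs. TN. With TN replicate 1 included, 9 of 10 hepatocyte markers also lay above TN in HS vs. TN and in PF vs. TN. Their median log2 fold changes were 0.75 for HS and 0.56 for PF, with 0 DEGs. The marker medians were not computed without that cow.

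Ratios within a library were formed from counts and do not depend on how libraries were scaled. *SOCS2* had 2.26, 2.89 and 2.97 counts per *GHR* count in the PF cows, 1.64, 1.39 and 1.81 in the HS cows and 0.991, 10 and 1.62 in the TN cows. All HS cows were below all PF cows, by 0.74 on the log2 scale, with an exact two-sided permutation p of 0.1, the smallest that 3 cows against 3 allow, and 0.982 after adjustment over the 12 ratio tests. *IGF1* had 1.03 to 1.66 counts per *GHR* count in the 9 cows, and the log2 difference between groups was at most 0.18 in size (exact permutation p of 0.5 or more). For *IGF1* relative to *IGFALS* the log2 ratio was lower by 0.62 in HS than in TN cows (exact permutation p = 0.2) and by 0.36 in PF than in TN cows (p = 0.5), each p 0.982 after adjustment. For *IGFBP3* relative to *IGFBP2* the difference was -0.55 in HS vs. TN (exact permutation p = 0.6), and it turned to 0.11 without TN replicate 1, whose ratio of 0.658 was the highest of the 9 cows.

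Across the cows, the receptor and its endocrine target varied together. The correlation of log2 CPM of *GHR* and *IGF1* was r = 0.78 over 9 cows (exact permutation p = 0.0159, 0.0797 after adjustment over 5 relations) and Spearman's rho was 0.80 (exact permutation p = 0.0138, adjusted 0.0691). Without TN replicates 2 and 3, the cows farthest from the median of *GHR*, r was 0.77 (exact permutation p = 0.0391), and with the group means removed it was 0.70 (within-group exact permutation p = 0.0417, adjusted 0.208). None of these adjusted p-values was under 0.05. Both genes were read from the same library and scaled by the same factor. The correlation was 0.49 for *IGF1* and *IGFALS* (exact permutation p = 0.179, adjusted 0.298; rho 0.45, p = 0.23), 0.16 without the cows farthest from the median of *IGF1*. It was 0.12 for *GHR* and *SOCS2* (exact permutation p = 0.761, adjusted 0.761; rho 0.13, p = 0.744), and 0.36 without the cows farthest from the median of *GHR*. For *IGF1* and *IGFBP2* it was 0.23 (exact permutation p = 0.498, adjusted 0.622; rho 0.30, p = 0.437), and -0.12 without the farthest cows. *IGFBP2* and *IGFBP3* had r = 0.57 (exact permutation p = 0.132, adjusted 0.298; rho 0.23, p = 0.552), which rested on TN replicate 1 and was 0.11 without it.

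**Figure D4:**
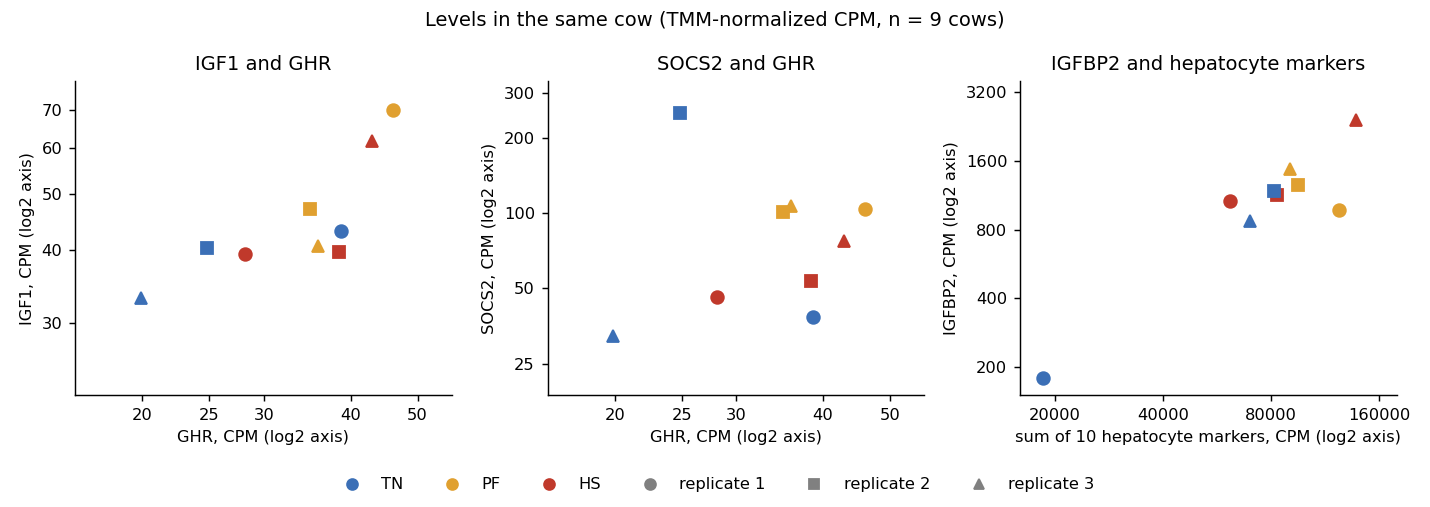
Levels in each of the 9 cows on log2 axes, with colour for the group and marker shape for the replicate: *IGF1* against *GHR*, *SOCS2* against *GHR*, and *IGFBP2* against the sum of 10 hepatocyte markers. *IGF1* and *GHR* have r = 0.78 (exact permutation p 0.0797 after adjustment over 5 relations). TN replicate 2 stands above the others for *SOCS2*, and TN replicate 1 lies at the lower left of the panel of *IGFBP2*.

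Among the genes whose levels over the 9 cows were most like *IGF1* were *SRP9* and *DYNC1I2*. The root mean square difference of their centred log2 CPM from that of *IGF1* was 0.102 and 0.126, where *IGF1* itself spanned 1.07 on the log2 scale. *SRP9* encodes a subunit of the signal recognition particle and *DYNC1I2* an intermediate chain of cytoplasmic dynein. Of the axis genes, *GHR* came nearest, at 0.23 and rank 181 of 15072 genes, followed by *JAK2* at 0.287 and rank 859. *IGFBP1* and *IGFBP2* were among the least alike, at 0.938 and 0.942. This likeness is a description over 9 cows.

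Genes around the axis were read from 4 further lists, and 0 of the genes tested in any of them were DEGs with edgeR or DESeq2 in any comparison. The lists held 7, 7, 15 and 13 genes tested with edgeR. Over the 4 lists, 3 genes in HS vs. TN, 2 in HS vs. PF and 3 in PF vs. TN had an unadjusted p under 0.05 with edgeR. The shares over all genes were 9.36%, 5.32% and 6.88%. With DESeq2 the numbers were 5, 2 and 2, beside 7.91%, 4.63% and 6.41% of all genes. Of 8 other ligands and receptors 7 were tested, of which 5 lay above 0 in HS vs. TN and 6 in PF vs. TN, and none had an unadjusted p under 0.05. *INSR*, the insulin receptor, was at 47.4 to 55.8 CPM in TN, 57.4 to 84.1 in PF and 59.4 to 89.3 CPM in HS cows. Both other groups lay above TN, by log2 fold changes of 0.47 (SE 0.26, FDR 0.709) and 0.44 (SE 0.24, FDR 0.573). Groups separated with TN lower were found for 6.81% of all genes in PF vs. TN and for 8.37% in HS vs. TN. *PRLR*, the prolactin receptor and a relative of GHR, had a log2 fold change of 0.71 in HS vs. TN (SE 0.39, edgeR FDR 0.572), with 244.0 to 591.5 CPM in TN and 587.8 to 721.9 CPM in HS cows. *GHRHR*, a receptor of the pituitary, had no count in any library and was not tested.

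Of 10 further binding proteins, proteases and inhibitors 7 were tested, with 1 above and 6 below 0 in HS vs. TN, 2 above in HS vs. PF and 4 above in PF vs. TN. *IGFBP6*, which prefers IGF2 to IGF1, was at 21.0, 24.2 and 20.5 CPM in the HS cows, 27.0, 44.9 and 43.0 CPM in the PF cows and 62.2, 25.9 and 21.8 CPM in the TN cows. All HS cows were below all PF cows, as for *SOCS2*, which held for 4.58% of all genes with HS lower and for 10.5% in either direction. In HS vs. PF the log2 fold change was -0.81 (SE 0.25, 95% interval -1.35 to -0.27, unadjusted p 0.00703, edgeR FDR 0.625). In HS vs. TN the value was -0.77 (SE 0.38, FDR 0.536), and -0.13 without TN replicate 1, the highest cow. *PLG*, the plasminogen gene, whose active protease cleaves binding proteins, had log2 fold changes of 1.08 in HS vs. TN (SE 0.62, edgeR FDR 0.586) and 0.81 in PF vs. TN (SE 0.53, FDR 0.724), and 0.63 and 0.37 without TN replicate 1, which was at 381.6 CPM against 1804 to 3650 CPM in the others.

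All 15 other genes of growth hormone signalling and feedback were tested, with 8 above and 7 below 0 in HS vs. TN, 10 above in HS vs. PF and 5 above in PF vs. TN. *STAT5A*, the paralog of *STAT5B*, was at 14.6, 17.2 and 11.6 CPM in TN, 8.76, 6.59 and 9.68 CPM in PF and 12.0, 9.004 and 8.21 CPM in HS cows. All PF cows were below all TN cows, which held for 6.36% of all genes with PF lower and for 13.2% in either direction. HS replicate 1 reached the TN range. The log2 fold change was -0.79 in PF vs. TN (SE 0.28, 95% interval -1.41 to -0.17, unadjusted p 0.0164, edgeR FDR 0.697) and -0.58 in HS vs. TN (SE 0.26, p 0.049, FDR 0.522). *SOCS3*, a feedback inhibitor best known from cytokine signalling, was at 8.05 to 10.01 CPM in TN and 10.4 to 24.7 CPM in HS cows, a log2 fold change of 0.73 (SE 0.35, edgeR FDR 0.531), while the PF cows spread from 4.14 to 25.6 CPM. Without HS replicate 2, the highest HS cow for *SOCS3*, the HS vs. TN value was 0.22. *CISH*, another STAT5 target, was looked at after its values were seen, since TN replicate 2 was so high for *SOCS2*. It was at 28.6 CPM in that cow, between 38.9 and 6.98 CPM in TN replicates 1 and 3, and at 14.8 to 23.0 CPM in the PF and HS cows. The TN cow with high *SOCS2* was therefore not the highest for *CISH*.

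The last list held 14 hepatic regulators and targets of GHR and STAT5, of which 13 were tested, with 9 above and 4 below 0 in HS vs. TN, 4 above in HS vs. PF and 10 above in PF vs. TN. *FGF21*, a fasting-induced hormone of the liver that can blunt growth hormone signalling, was at 1.42, 28.5 and 10.2 CPM in the PF cows, 0.960, 2.57 and 0 CPM in the HS cows and 0, 0.185 and 3.22 CPM in the TN cows. It was highest in PF replicates 2 and 3 and low in the others, down to no count in HS replicate 3 and TN replicate 1. The log2 fold change was -3.49 in HS vs. PF (SE 1.06, unadjusted p 0.00709, edgeR FDR 0.625) and 3.59 in PF vs. TN (SE 1.22, p 0.0131, FDR 0.697). Both passed the FDR threshold only when no filter on low counts was used (FDR 0.0133 and 0.003). Without PF replicate 2 the values were -2.30 in HS vs. PF (unadjusted p 0.0593, edgeR FDR 0.837) and 2.38 in PF vs. TN (p 0.0957, FDR 0.958), and without TN replicate 3, which left 0 and 0.185 CPM in TN, PF vs. TN was 7.27, a fitted value that depends on the prior count. *KLB*, the co-receptor of FGF21, was looked at after its values were seen. It was at 24.5 to 27.8 CPM in TN, 28.4 to 55.6 CPM in PF and 30.8 to 46.1 CPM in HS cows, with no overlap between TN and the other groups. In PF vs. TN such a separation was found for 6.81% of all genes with PF higher and for 13.2% in either direction. The log2 fold changes of *KLB* were 0.77 in PF vs. TN (SE 0.28, unadjusted p 0.0192, edgeR FDR 0.705) and 0.59 in HS vs. TN (SE 0.22, p 0.0253, FDR 0.485). *CEBPB*, a transcription factor of the acute phase and of gluconeogenesis, was at 39.2 to 47.4 CPM in TN and 59.3 to 74.2 CPM in HS cows. The groups did not overlap, and the log2 fold change was 0.60 (SE 0.21, 95% interval 0.13 to 1.06, unadjusted p 0.0171, edgeR FDR 0.458). Groups that did not overlap in HS vs. TN were found for 8.37% of all genes with HS higher and for 16.1% in either direction.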

How the data were processed

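Poly(A) RNA from liver biopsies of 9 cows (TN, PF and HS, n = 3) was sequenced. The deposited values are read counts per gene, not normalized, which the authors made with fastp 0.23.2, STAR 2.7.9a on ARS-UCD1.2 and featureCounts 2.0.3; the annotation release and the strand setting are not given in the sources used here. All columns of the table were mapped to a cow by their labels.

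Each pair of groups was fitted with edgeR 4.0.16 in R 4.3.3 (filterByExpr, TMM, quasi-likelihood F test) by scripts tested on simulated counts, and p-values were adjusted over all genes of the fit by the Benjamini-Hochberg method. Genes with FDR < 0.1 and more than a 1.5-fold difference were DEGs. Levels are TMM-normalized CPM of the 9 libraries, with an offset of 0.5 on the log2 scale in correlations; the ratios used counts plus 0.5. Intervals are 95% intervals from the fit. They give the uncertainty of a difference between groups, which rests on the spread between cows, each read from 1 biopsy. That spread was estimated in part from information shared across genes, with 9.59 to 11.4 degrees of freedom. No 2 libraries of the same group agreed within sampling noise (chi-square per degree of freedom 51.47 to 207.8). Levels were not compared between genes, as transcript lengths were not given. Gene names and overlaps came from the RefSeq annotation of ARS-UCD2.0 (10 of 10 genes and 24366 of the listed symbols matched). The overlaps were read from gene coordinates of that build, while the reads were aligned to ARS-UCD1.2. No sequences of either build were used.

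The members, lists and tests were chosen with earlier results of these data known. Genes named beside the 10 members were the 2 with the smallest unadjusted p of each further list and the 3 most like *IGF1*, of which 1 is not reported here; *KLB*, *CISH* and *GHRHR* were named outside this rule. The alternatives were DESeq2 1.42.0, RLE size factors, mitochondrial genes left out, a single fit of the 9 libraries, no filter on low counts or a minimum of 10 in each sample, a replicate block, glmTreat, an FDR threshold of 0.05, a variance-stabilizing transformation, group means removed, an offset of 5 counts, and each cow left out in turn.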

Additional observations from a re-analysis of the deposited data

How the results depend on the processing

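None of the 10 genes was a DEG under any alternative. Of 390 fold changes of the 10 genes recomputed under the alternatives, 372 kept their direction and 18 reversed, over 11 of the 30 results. All but the block fit of *SOCS2* reversed on leaving out 1 cow. In HS vs. PF the log2 fold change then ranged from -0.23 to 0.051 for *GHR*, -0.41 to 0.093 for *IGF1*, -0.15 to 0.35 for *IGFALS*, -0.73 to 0.40 for *IGFBP1*, -0.17 to 0.50 for *IGFBP2*, -0.081 to 0.21 for *IGFBP3*, -0.41 to 0.033 for *IGFBP4* and -0.11 to 0.082 for *JAK2*. Against TN it ranged from -1.29 to 0.73 (HS) and -0.47 to 1.56 (PF) for *SOCS2* and from -0.37 to 0.13 (PF) for *STAT5B*. The log2 ratio of *IGF1* to *GHR* ranged from -0.16 to 0.10 in HS vs. PF. That of *IGFBP3* to *IGFBP2* ranged from -0.47 to 0.38 in HS vs. PF, -1.07 to 0.11 in HS vs. TN and -0.93 to 0.26 in PF vs. TN, and that of *SOCS2* to *GHR* from -1.33 to 0.34 in HS vs. TN and -0.59 to 1.08 in PF vs. TN. The correlation of *GHR* and *IGF1* was 0.71 to 0.85 with a cow left out, that of *GHR* and *SOCS2* -0.36 to 0.64, and that of *IGF1* and *IGFBP2* -0.0033 to 0.42, or -0.048 with group means removed. Members with an unadjusted p under 0.05 numbered 0 in HS vs. PF with all 9 libraries in 1 fit, 3 in HS vs. TN and 2 in PF vs. TN under DESeq2, 0 in each under glmTreat, and 0 to 3 against TN with a cow left out. No label pairs the cows, correlations of cows with the same replicate number ran from -0.218 to 0.241, and not every cow correlated best with its own number. With the replicate number as a block the log2 fold change of *SOCS2* in PF vs. TN turned to 0.68 (edgeR FDR 0.753), 3 members had an unadjusted p under 0.05 in HS vs. TN, and DEGs among all genes numbered 33, 6 and 1 in HS vs. TN, HS vs. PF and PF vs. TN, against 13, 4 and 0. Without a filter on low counts DEGs numbered 124, 98 and 136, and *FGF21* passed in HS vs. PF (-3.49) and PF vs. TN. DESeq2 called 270, 122 and 91, the other alternatives with all cows 0 to 33, 3 to 8 and 0 to 1, and the fits without a cow 0 to 39, 5 to 10 and 0 to 14. The causes of these shifts were not tested.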
